A study of Mus musculus with 15 samples.

Results

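This account follows 34 mouse genes of recombination, mismatch repair and break repair through leukemia stem cells (LSC) taken from 4 sites and through their normal counterparts. The genes were matched by their gene identifier, and 34 of 34 were found among the 23359 entries of each comparison. The disease modelled is chronic myeloid leukemia in blast crisis, produced in mice by expressing the human oncogenes BCR-ABL and NUP98-HOXA9 together. Leukemia cells were transplanted, and 12 days later LSC were collected from gonadal adipose tissue (AT), blood (BL), marrow (BM) and spleen (SPL). The normal counterparts came from normal bone marrow (NBM), although the labels list the leukemia model under strain for these libraries too. All mice were females of 3 months, with 3 RNA-seq libraries for each of the 5 groups. The labels give no sort gate, no strain of the recipients and no statement on whether replicate libraries are from different animals.

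Levels are in FPKM, fragments scaled to gene length and to sequencing depth, as 1 pooled value per group with the authors' bounds, 2 standard deviations on either side. The authors' scaling for depth differed from scaling by total estimated counts, by up to 0.53 on the log2 scale, in AT over SPL. A fold "X over Y" is the log2 ratio of X to Y, and ± is the standard error that the authors' test statistic implies. A gene is called when the authors' deposited table gives a test and a q-value, a p-value adjusted for multiple tests, below 0.05. No value of a single library was used, so the spread between libraries enters only through that test, which may measure technical spread.

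Homologous recombination copies an intact sister strand into a broken one, and in cycling cells it is used mainly after DNA has been replicated. Non-homologous end joining rejoins broken ends without a template and can act throughout the cycle. Mismatch repair corrects errors left by the polymerase, and the Fanconi anaemia pathway unhooks crosslinks between strands. Many of these genes are known to be transcribed more in S phase than in resting cells, and inherited loss of several of them leads to marrow failure or leukemia.

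The repair genes stood at similar levels in NBM, BM LSC and SPL LSC and were lower in AT and BL LSC. The median level of the 34 genes was 1.65 FPKM in NBM, 1.47 in BM, 1.94 in SPL, 0.337 in BL and 0.572 in AT LSC. In NBM 25 genes reached an FPKM of 1, and in BM and SPL LSC 24 and 25 did. Only 6 reached it in BL and 5 in AT LSC. As a share of all estimated counts, a measure that does not use the authors' scaling, the 34 genes summed to a CPM of 1130 in NBM, 1030 in BM, 1120 in SPL, 289 in BL and 446 in AT LSC. In this bulk RNA, fewer cells carrying a transcript and less of it in each cell cannot be told apart.

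The order of the groups was nearly the same from gene to gene. AT and BL LSC were the lowest groups for 33 of 34 genes, the exception being Bard1. Among the 31 members tested in all 6 pairs that set AT or BL against the other groups, 31 had this order. Of 11829 genes tested in those pairs, 44.8% had it too. BL LSC were lowest of all for 26 members and AT LSC for 8. The highest group was SPL LSC for 20 members, NBM for 10 and BM LSC for 4.

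**Figure D1:**
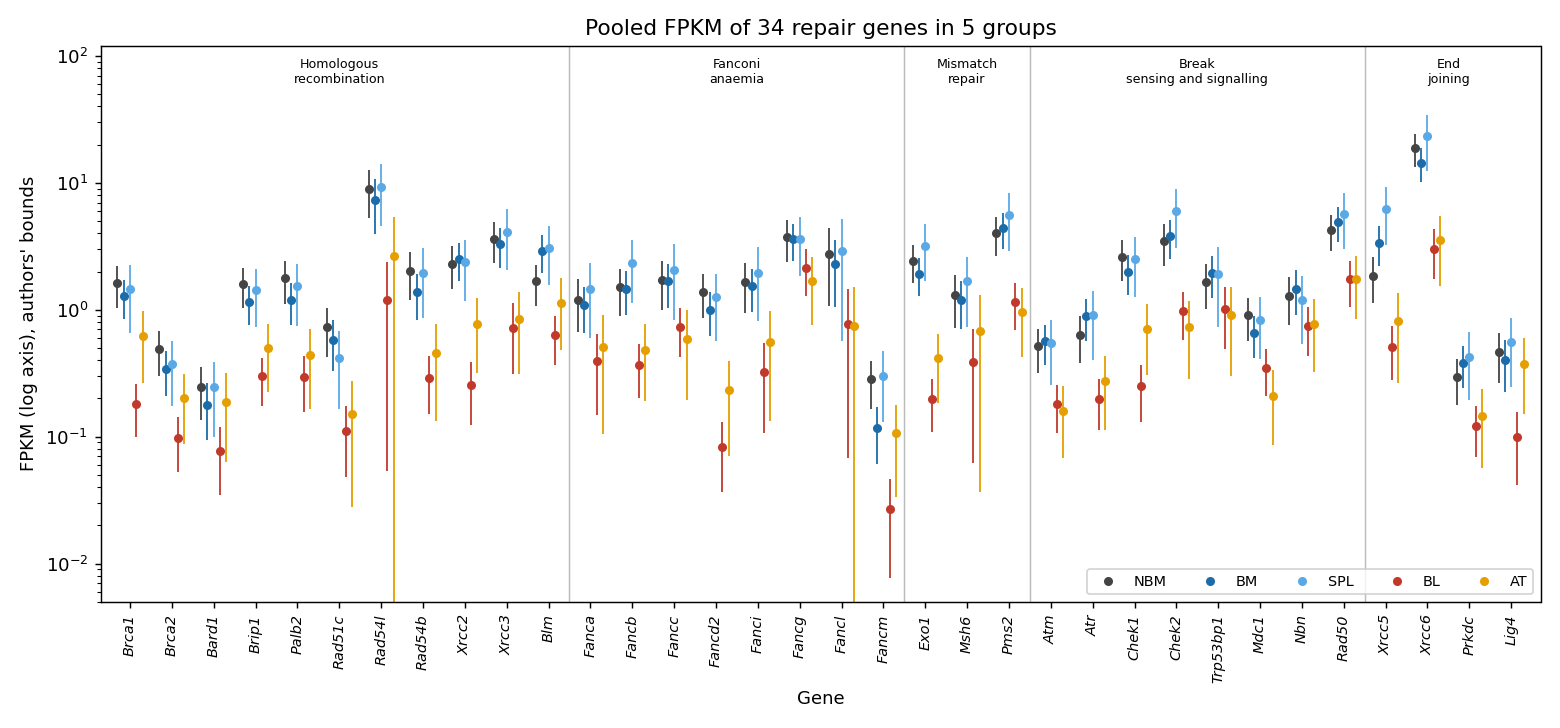
Pooled FPKM of the 34 repair genes on a log axis, by role, in the 5 groups; lines are the authors' bounds, and those reaching the bottom of the axis go to 0. NBM, BM and SPL LSC lie together for most genes, with medians of 1.65, 1.47 and 1.94, above BL at 0.337 and AT LSC at 0.572.

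Estimated counts behind these levels ranged from 102 to 2783 per gene in NBM and from 17 to 651 in BL LSC, with 1.95e+07 estimated counts over all genes in each of these groups. SPL LSC were the shallowest, at 8.96e+06. The median standard error over all tested genes ran from 0.40 for BM over NBM to 0.59 for AT over SPL, so a member that was not called is not shown to be unchanged. The progenitor markers went both ways. Kit stood at 10.4 FPKM in NBM and between 1.64 and 4.10 in the LSC groups. Hoxa9 stood at 0.771 in NBM and 2.03 to 3.65 in the LSC groups, and Gata2 at 1.78 and 2.39 to 10.9. Summed FPKM of 9 macrophage markers was 1400 in BL and 1010 in AT LSC against 201 in BM, 207 in SPL and 400 in NBM, and none of them lay below 0.1. Lyz2 gave most of these sums, 1105 in BL and 852 in AT LSC, whereas Mrc1 stood at 2.84 in NBM, 0.675 in BL and 0.321 in AT LSC. By the authors' deposited table, 5 of 9 macrophage markers were higher and 2 lower in BL over NBM, and 2 higher and 3 lower in AT over NBM. Summed FPKM of 9 stromal markers was 29.7 in AT LSC and 1.14 to 2.88 elsewhere, with 5 or 6 of the 9 below 0.1 outside AT LSC. Summed FPKM of 9 neutrophil markers was 3970 in AT, 1190 in BL and 691 to 1580 elsewhere. S100a8, S100a9 and Ngp gave most of the AT sum, at 1331, 707 and 1605. Mmp8 went the other way, at 9.91 in AT and 36.5 in BL LSC. Cxcr2, Mmp9 and Retnlg were also higher in BL than in AT LSC. Summed FPKM of 9 erythroid markers, mostly globins, was 2740 in BL, 762 in AT, 110 in NBM and 915 and 1190 in BM and SPL LSC. T and NK markers summed to 142 to 349 in the 5 groups, of which Nkg7 gave 110 to 329. The T cell genes of that list were higher in NBM: Cd3e stood at 14.9 FPKM in NBM and at 0.210 to 1.98 in LSC, and 8 of 10 list genes in BL and 7 of 10 in AT LSC were lower than in NBM by the authors' deposited table. B cell markers summed to 22.1 in NBM and 15.2 in SPL LSC but to 1.87 in AT LSC, where 4 of 7 were below 0.1. Adipocyte markers summed to 36.5 in BL and 52.3 in AT LSC and to 4.33 to 5.05 elsewhere, with 3 or 4 of the 6 below 0.1 in each group. Fabp4 gave most of these sums, 31.8 in BL and 46.2 in AT LSC, whereas Adipoq was at most 0.0304 in any group. Endothelial markers summed to 8.45 to 24.5, of which Pecam1 gave 7.94 to 24.0. The 10 stem and progenitor markers summed to 74.0 in NBM, 64.8 in BM, 46.3 in SPL, 24.4 in BL and 25.1 in AT LSC. The part of such cells in the results was not tested.

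Few repair genes separated marrow or spleen LSC from normal counterparts. By the authors' deposited table, 0 of 34 members were called higher and 1 lower in BM LSC against NBM, where 8.17% and 7.85% of all 12823 tested genes were called. Fancm, the translocase that anchors the Fanconi core complex to DNA, was the 1 gene lower, at 0.116 FPKM against 0.282, and the authors' deposited table gives it -1.28 ± 0.45 (q 0.0271). It rested on 59 and 175 estimated counts. In SPL LSC against NBM the same source gave 1 member higher and 0 lower, against 6.37% and 6.19% of all genes. That gene was Xrcc5, which encodes the larger subunit of the Ku ring that binds broken ends. Between SPL and BM LSC the authors' deposited table called 0 of 33 tested members either way, where 1.19% of genes were higher and 1.5% lower.

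Both the circulating and the adipose LSC had lower repair gene levels than normal counterparts. BL LSC had 29 of 34 members lower and 0 higher in the authors' deposited table, against 22.9% of all genes lower and 11.5% higher. The median fold of the tested members was -1.95, and that of all tested genes -0.36. AT LSC had 19 of 33 lower and 0 higher in the authors' deposited table, against 15.5% of all genes lower and 7.94% higher, with medians of -1.58 and -0.46. These comparisons share the NBM libraries.

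**Figure D2:**
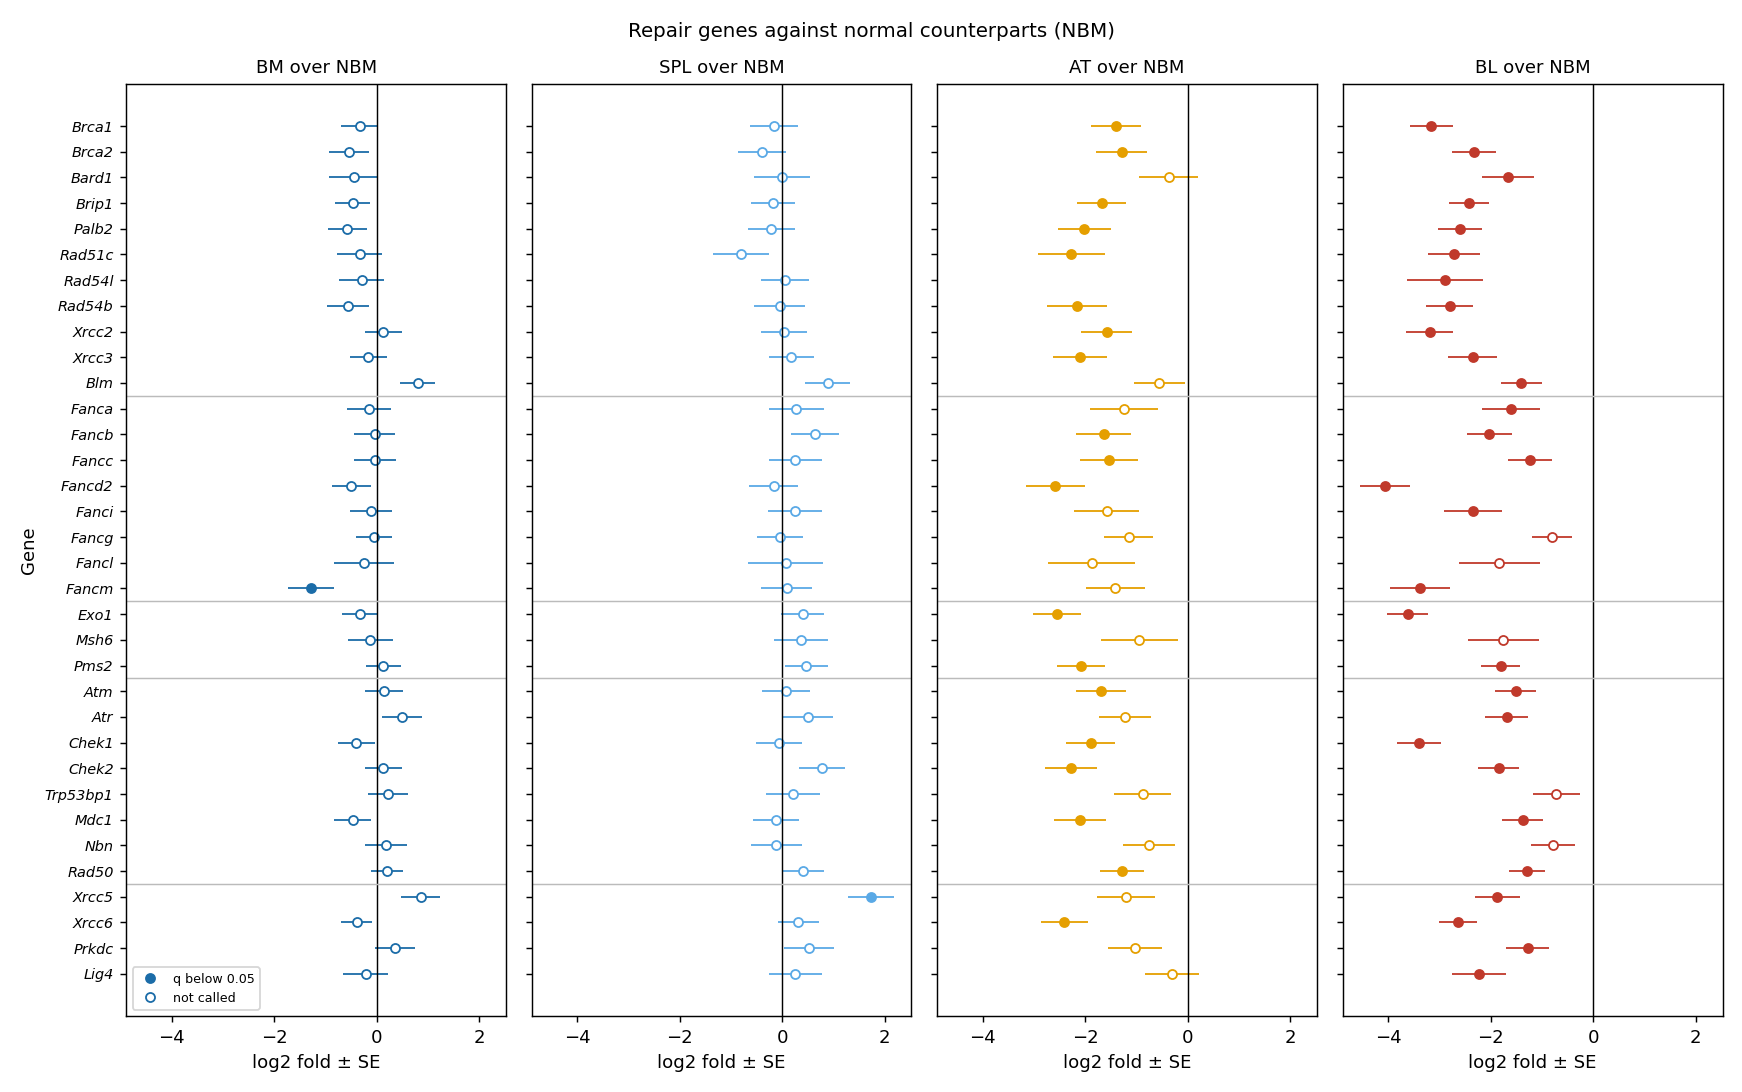
Log2 fold (x axis) ± the authors' standard error of each repair gene against NBM, for the 4 LSC sites, with filled points called at q below 0.05. In BM and SPL LSC 1 gene each was called, in AT LSC 19 of 33 and in BL LSC 29 of 34; Rad54l had no valid test in AT LSC.

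Marrow and spleen LSC as reference gave like counts. Against BM LSC, the authors' deposited table had 26 of 33 members lower in BL (22.8% of all genes) and 21 of 33 lower in AT LSC (15.5%). Against SPL LSC it had 28 of 32 lower in BL (23.1%) and 21 of 33 lower in AT LSC (17.9%). In each of these 4 comparisons 0 members were higher, where 10.5%, 7.24%, 10.2% and 7.20% of all genes were, in the same order.

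How many members were called in AT LSC depended on the scaling. Folds of all genes had a median below 0 in the comparisons of AT and BL LSC with NBM, BM and SPL, from -0.36 to -0.52. After centring each comparison on that median, 11 of 33 members were lower in AT LSC than in NBM (6.56% of all genes), 8 of 33 than in BM (5.11%) and 9 of 33 than in SPL LSC (7.02%). For BL LSC centring left 23 of 34 against NBM (14.0%), 24 of 33 against BM (13.6%) and 22 of 32 against SPL LSC (14.6%). Among all genes centring turned the balance of the AT comparisons: in AT over BM 953 were higher and 2046 lower before it, and 1550 higher and 666 lower after it. The shares of all genes higher after centring were 12.4%, 11.9% and 11.3% in AT and 16.6%, 15.7% and 14.9% in BL LSC, over NBM, BM and SPL in that order. In BM over NBM, SPL over NBM and AT over BL centring left the member counts at 1 lower (7.35% of all genes), 1 higher (5.58%) and 5 higher (4.39%, with 1.66% lower). In SPL over BM the members' counts stayed at 0, with 0.911% of all genes higher and 1.86% lower.

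Of the core recombination genes, 11 of 11 were lower in BL and 8 of 10 in AT LSC against NBM in the authors' deposited table. All genes gave 22.9% and 15.5% lower. After centring the counts were 10 of 11 and 4 of 10, beside 14% and 6.56% of all genes. Brca1, which acts with BARD1 as a ubiquitin ligase at breaks, stood at 1.62 FPKM in NBM, 1.29 in BM, 1.45 in SPL, 0.181 in BL and 0.618 in AT LSC. BL LSC were low, AT LSC lay between, and the bounds of BL (0.0995 to 0.262) did not overlap those of any other group. The fold was -3.16 ± 0.42 in BL over NBM (q 4.43e-12) and -1.39 ± 0.49 in AT over NBM (q 0.0252) in the authors' deposited table. After centring the AT over NBM call was lost (q 0.194). In AT over BM, by the authors' deposited table, it was -1.06 without a call.

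Brca2, whose product acts at resected DNA ends, stood at 0.491, 0.340, 0.372, 0.0976 and 0.201 FPKM in NBM, BM, SPL, BL and AT LSC. Palb2, the bridge between BRCA1 and BRCA2, stood at 1.77, 1.19, 1.53, 0.295 and 0.437 in the same order. For both the lowest value was that of BL LSC. Their folds in BL over NBM were -2.33 ± 0.43 and -2.59 ± 0.43 in the authors' deposited table, with q of 2.69e-06 and 1.29e-07. Centring ended the Brca2 call in AT over NBM (q 0.273) and the Palb2 calls in AT over BM (q 0.211) and AT over SPL (q 0.112). Bard1, the partner of BRCA1, stood at 0.244, 0.179, 0.244, 0.0773 and 0.189 FPKM. It was the faintest recombination gene in each group except AT LSC, where Rad51c stood at 0.152. The AT level of Bard1 was above that of BM LSC, with a fold of 0.08. Bard1 was called only in BL over NBM, at -1.66 ± 0.51 in the authors' deposited table, a call lost after centring (q 0.0585).

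Xrcc2, Xrcc3 and Rad51c, whose products act together in strand exchange, had lower levels in AT and BL LSC than in NBM, BM and SPL LSC. Xrcc2 stood at 2.31 FPKM in NBM, 2.53 in BM, 2.37 in SPL, 0.254 in BL and 0.772 in AT LSC. Its levels in NBM, BM and SPL lay within 0.13 of each other on the log2 scale in the authors' deposited table, and BL LSC were far below, at -3.32 ± 0.44 against BM (q 1.01e-11). Xrcc3 stood at 3.64, 3.27, 4.13, 0.714 and 0.847 and Rad51c at 0.730, 0.580, 0.419, 0.110 and 0.152 FPKM in the order NBM, BM, SPL, BL, AT. Both were called in AT and in BL LSC against BM in the authors' deposited table, at -1.95 and -2.19 for Xrcc3 and -1.94 and -2.39 for Rad51c. Rad51c was not called in AT over SPL (q 0.15 in that source). After centring Rad51c was no longer called in AT over BM (q 0.118) or BL over SPL (q 0.0589). Xrcc2, called lower in AT LSC against NBM, BM and SPL before centring, lost these calls after it (q 0.109, 0.0616 and 0.177). Xrcc3 stayed called in AT LSC against NBM, BM and SPL.

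Rad54l and Rad54b encode translocases that act in invasion of the sister strand. Rad54l was the most abundant recombination gene here, at 8.92 FPKM in NBM, 7.32 in BM, 9.29 in SPL, 1.20 in BL and 2.67 in AT LSC. The authors' test failed for it in the 4 comparisons with AT LSC, and it was called in BL over NBM at -2.89 ± 0.75 in the authors' deposited table. Rad54b stood at 2.03, 1.38, 1.96, 0.292 and 0.456, but 35.8% of its exon bases in GENCODE M21 also belong to Fsbp on the same strand, so its reads cannot be fully told apart from that gene's. Brip1 and Blm, both helicase genes, completed the set.
Brip1, whose product binds BRCA1, stood at 1.60, 1.15, 1.42, 0.298 and 0.499 FPKM, and Blm, whose product undoes crossed-over intermediates, at 1.67, 2.92, 3.09, 0.631 and 1.14. Blm in BM over NBM was 0.80 ± 0.35 and not called, and BL over BM was -2.21 ± 0.38 (q 3.53e-07), both in the authors' deposited table. Centring ended the Brip1 calls in AT over NBM (q 0.0521), AT over BM (q 0.329) and AT over SPL (q 0.213). Blm and Rad54b lost theirs in AT over BM (q 0.219 and 0.194) and AT over SPL (q 0.274 and 0.0722).

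Of the Fanconi genes, 6 of 8 were lower in BL and 3 of 8 in AT LSC against NBM in the authors' deposited table, beside 22.9% and 15.5% of all genes. Fancd2, the clamp subunit that is ubiquitinated at crosslinks, stood at 1.39 FPKM in NBM, 0.996 in BM, 1.25 in SPL, 0.0834 in BL and 0.233 in AT LSC. The bounds of BL (0.0363 to 0.131) lay under those of NBM, BM and SPL LSC. Its fold in BL over NBM, -4.06 ± 0.49 (q 5.49e-14) in the authors' deposited table, was the lowest of the 34 genes. AT over NBM gave -2.58 ± 0.57 (q 0.000119) in that source. Fanci, the other clamp subunit, stood at 1.64, 1.54, 1.96, 0.326 and 0.552 FPKM in NBM, BM, SPL, BL and AT LSC and was called against NBM in BL LSC, at -2.34 ± 0.57 in the authors' deposited table, but not in AT LSC. Its call in AT over SPL was lost after centring (q 0.202).

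Of the core complex, which carries the ubiquitin ligase, Fancb stood at 1.5, 1.46, 2.35, 0.368 and 0.482 FPKM in the same order and was called lower in both AT and BL LSC against each of NBM, BM and SPL in the authors' deposited table. Fancc, at 1.71, 1.67, 2.05, 0.730 and 0.593, was called likewise, with folds from -1.19 in BL over BM to -1.79 in AT over SPL in the authors' deposited table. After centring, the 6 calls of Fancc were all lost (q 0.144 to 0.223), and Fancb was no longer called in AT over NBM (q 0.108) or AT over BM (q 0.12). Fanca, at 1.20, 1.09, 1.46, 0.398 and 0.510, was called in BL LSC against NBM, BM and SPL there, and in AT LSC in none. The 3 calls of Fanca were lost after centring (q 0.0819 to 0.161). Fancg was called in no comparison at 3.73, 3.59, 3.62, 2.15 and 1.69 FPKM, and it was the most abundant Fanconi gene in both BL and AT LSC. Fancl, the ligase subunit, was called in none either, at 2.74, 2.30, 2.88, 0.771 and 0.751. Its folds were as low as those of called genes, -1.83 in BL over NBM and -1.87 in AT over NBM in the authors' deposited table, but its standard errors were 0.79 and 0.85. Fancm rested on the fewest counts of all members in BL LSC, 17, at 0.0271 FPKM.

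Mismatch repair was represented by 3 members. Exo1, an exonuclease of mismatch repair that also trims broken ends, stood at 2.43 FPKM in NBM, 1.93 in BM, 3.20 in SPL, 0.197 in BL and 0.415 in AT LSC. Both AT and BL bounds, 0.183 to 0.648 and 0.109 to 0.286, lay under those of NBM, BM and SPL LSC. Folds against SPL LSC were -4.02 ± 0.47 in BL (q listed as 0) and -2.95 ± 0.53 in AT LSC (q 1.05e-06) in the authors' deposited table. Pms2, an endonuclease of mismatch repair, stood at 4.05, 4.42, 5.59, 1.16 and 0.955 in the same order, with -2.21 ± 0.46 in AT over BM (q 3.60e-05) and -1.93 ± 0.37 in BL over BM (q 4.65e-06) in the authors' deposited table. Msh6, which recognises mismatches, stood at 1.30, 1.19, 1.67, 0.386 and 0.674, had standard errors of 0.67 to 0.79 in the comparisons of BL or AT LSC with the other 3 groups, and was called only in BL over SPL at -2.12 ± 0.73 in the authors' deposited table, a call lost after centring (q 0.0866).

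Sensing and signalling genes ranged from steeply lower to uncalled. Chek1, the checkpoint kinase downstream of ATR, stood at 2.62 FPKM in NBM, 1.99 in BM, 2.51 in SPL, 0.249 in BL and 0.706 in AT LSC. BL LSC were the lowest and AT LSC lay between them and the rest. The folds were -3.40 ± 0.43 in BL over NBM (q 3.74e-13) and -1.89 ± 0.48 in AT over NBM (q 0.00110) in the authors' deposited table. Centring ended the Chek1 calls in AT over BM (q 0.133) and AT over SPL (q 0.0778). Chek2, the kinase downstream of ATM, had its lowest level in AT LSC, at 3.50, 3.82, 6.01, 0.976 and 0.725 FPKM in the order NBM, BM, SPL, BL, AT. Its folds in AT and BL over SPL were -3.05 ± 0.57 and -2.62 ± 0.46 in the authors' deposited table, with q of 2.32e-06 and 6.14e-07.

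The apex kinase genes were faint. Atm, which answers breaks, stood at 0.514, 0.566, 0.543, 0.180 and 0.159 FPKM, and Atr, which answers stalled forks, at 0.637, 0.898, 0.909, 0.197 and 0.273. Levels of Atm in NBM, BM and SPL LSC lay close together, and AT and BL LSC had about equal values below them. Atm was called in AT over BM at -1.83 ± 0.48 and in BL over BM at -1.65 ± 0.39 in the authors' deposited table. Atr was called there too, at -1.72 ± 0.50 and -2.18 ± 0.41, but in AT over NBM, at -1.22, it was not. Centring ended the Atr calls in AT over BM (q 0.0668) and AT over SPL (q 0.147). Atm lost its calls in AT over NBM (q 0.064), AT over SPL (q 0.11) and BL over SPL (q 0.0669) after centring.

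Mdc1, a scaffold that binds marked chromatin around a break, stood at 0.902, 0.651, 0.829, 0.349 and 0.210 FPKM and was lowest in AT LSC, at -2.10 ± 0.50 against NBM in the authors' deposited table (q 0.000448). Calls of Mdc1 in AT over BM (q 0.0927), BL over NBM (q 0.0599) and BL over SPL (q 0.224) were lost after centring. Rad50, part of the complex that tethers broken ends, was the most abundant signalling gene in BL and AT LSC, at 4.25, 4.92, 5.65, 1.74 and 1.75. It was called lower in AT and BL LSC against all 3 other groups, by folds from -1.28 to -1.70 in the authors' deposited table. Of these 6 calls 4 were lost after centring, the 3 of AT LSC (q 0.0871 to 0.202) and BL over NBM (q 0.0578). Nbn, of the same complex, and Trp53bp1, whose product favours end joining, were called in no comparison. Nbn stood at 1.29, 1.47, 1.20, 0.744 and 0.768, and Trp53bp1 at 1.66, 1.95, 1.92, 1.01 and 0.906. Their smallest q-values were 0.0726 and 0.125, both in BL over BM in the authors' deposited table.

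Of the end joining genes, 4 of 4 were lower in BL and 1 of 4 in AT LSC against NBM in the authors' deposited table, beside 22.9% and 15.5% of all genes, and the AT count is near that background. Xrcc6, which encodes the smaller Ku subunit, was the most abundant of the 34 genes, at 18.8 FPKM in NBM, 14.4 in BM, 23.4 in SPL, 3.02 in BL and 3.53 in AT LSC. BL and AT LSC were close to each other, with bounds of 1.75 to 4.29 and 1.54 to 5.52, both under the lowest bound of the other groups, 10.1. Folds were -2.41 ± 0.46 in AT over NBM (q 3.88e-06) and -2.64 ± 0.37 in BL over NBM (q 7.28e-11) in the authors' deposited table.

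Xrcc5, the partner gene, had a wider range among NBM, BM and SPL LSC. It stood at 1.86 FPKM in NBM, 3.37 in BM, 6.22 in SPL, 0.509 in BL and 0.810 in AT LSC. SPL LSC were the highest, and their bounds, 3.21 to 9.24, lay above those of NBM, 1.12 to 2.60. SPL over NBM was 1.74 ± 0.45 (q 0.00137) in the authors' deposited table, the 1 call of a member as higher in LSC than in normal counterparts. Xrcc6 in that comparison was at 0.32 and was not called. Whether the folds of these partner genes differ was not tested.

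Prkdc, the kinase that Ku recruits, stood at 0.296, 0.380, 0.428, 0.122 and 0.146 FPKM in NBM, BM, SPL, BL and AT LSC and was called in BL against each of the others except AT, and in AT against BM and SPL, in the authors' deposited table. Centring ended 3 of these 5 calls, BL over NBM (q 0.127), AT over BM (q 0.249) and AT over SPL (q 0.254). Lig4, the ligase that seals the ends, differed between the low sites, at 0.462, 0.399, 0.555, 0.0986 and 0.372 FPKM. BL LSC were far below the other groups, whereas AT LSC lay below NBM, BM and SPL LSC without a call. BL over BM was -2.02 ± 0.53 (q 0.00146) in the authors' deposited table, whereas AT over BM was -0.10 and was not called.

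**Figure D3:**
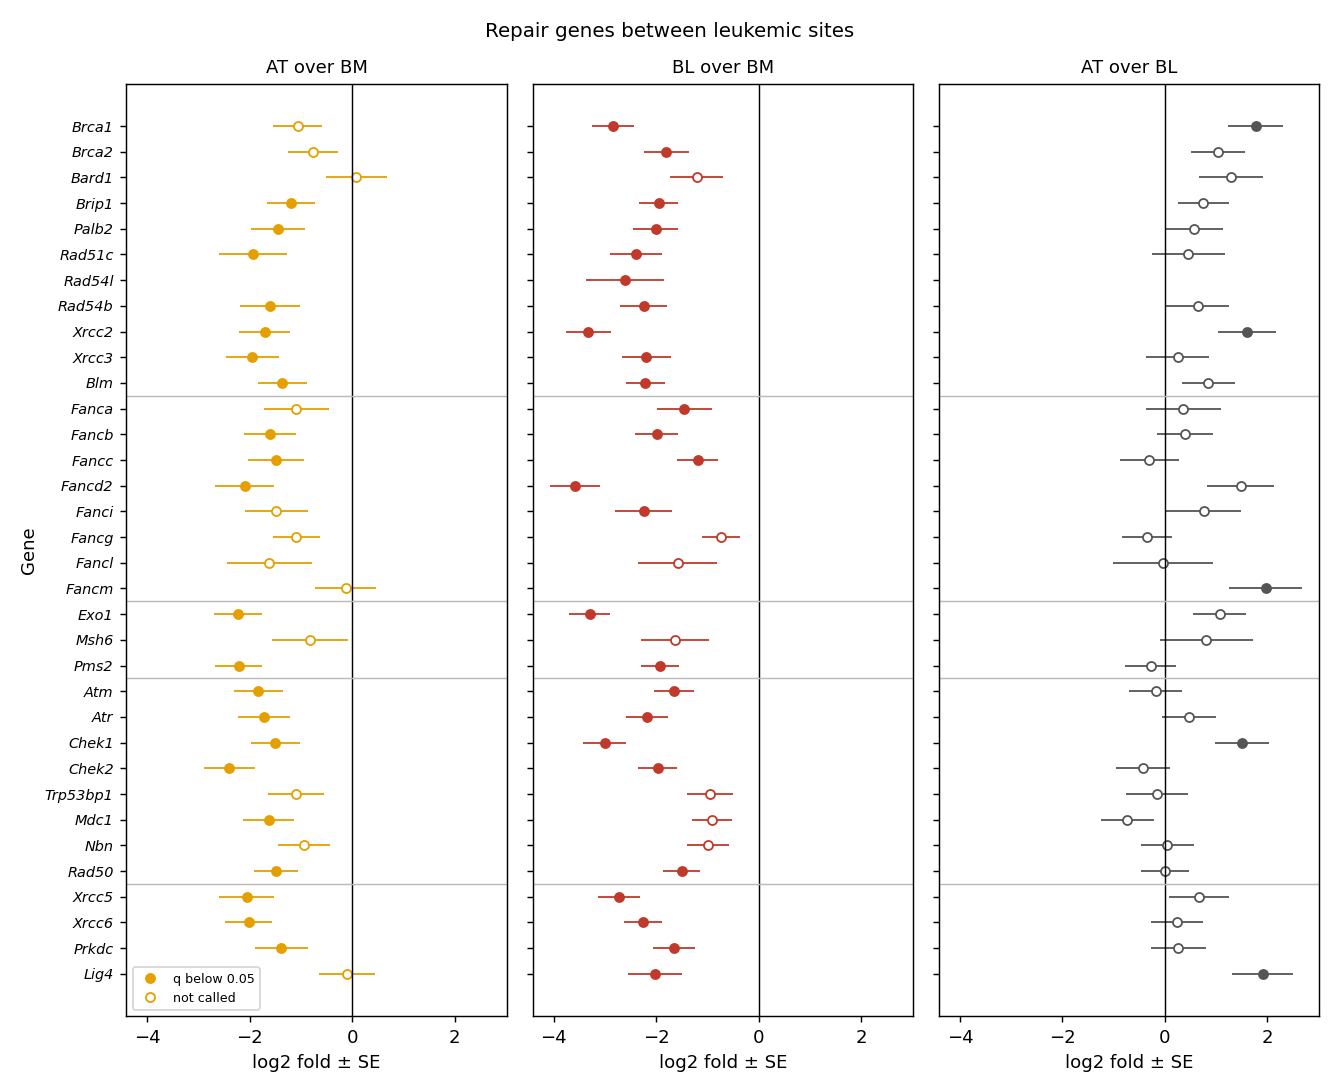
Log2 fold (x axis) ± the authors' standard error of each repair gene in AT over BM, BL over BM and AT over BL, with filled points called at q below 0.05. In AT over BL 5 genes were called, all higher in AT LSC, among them Brca1 at 1.77 and Lig4 at 1.91.

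Adipose and circulating LSC were compared directly. By the authors' deposited table, 5 of 33 members were higher in AT than in BL LSC and 0 lower, where 4.01% of all 13042 tested genes were higher and 2.51% lower. The 5 were Brca1 at 1.77 ± 0.53 (q 0.00625), Lig4 at 1.91 ± 0.60 (q 0.0106), Xrcc2 at 1.60 ± 0.57 (q 0.0262), Chek1 at 1.51 ± 0.53 (q 0.0268) and Fancm at 1.97 ± 0.71 (q 0.0316) in the authors' deposited table. Each of these genes stood below 1 FPKM in both groups, and Fancm and Lig4 rested on 17 and 30 estimated counts in BL LSC. The median fold of the members was 0.47 and that of all tested genes -0.11. Members at or below 0 in this comparison included Mdc1 at -0.73 and Chek2 at -0.43, neither called in the authors' deposited table.

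Promoter sequences were examined because the members moved together in AT and BL LSC. RefSeq promoter windows on GRCm38.p6, from 250 bases before to 50 after a start site, were found for 27 of the 34 genes, as 30 windows. They were searched on both strands for 4 spellings of the E2F site, TTTCCCGC, TTTGGCGC, TTTCGCGC and TTTGCCGC. E2F factors are known to control genes of DNA synthesis. Of the 30 windows 9 held 1 of these words (30.0%), from 8 genes, against 2.26% of all 32851 windows and 3.73% of 11963 windows of genes tested in BL over NBM. CCAAT occurred in 60.0% of the member windows and 37.4% of all, and TTTGAA, the core of the cell cycle element CHR, in 3.33% and 17.9%. A match describes these letters only and shows no binding. The stretches below show where the word lay in 5 genes in which it was upstream of the start site, 5′ to 3′ on the strand of the gene, with the word in capitals. GCGGGAAA is the same word read on the other strand.
Bard1: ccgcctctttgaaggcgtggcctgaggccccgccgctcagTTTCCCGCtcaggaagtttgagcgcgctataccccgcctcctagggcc
Chek2: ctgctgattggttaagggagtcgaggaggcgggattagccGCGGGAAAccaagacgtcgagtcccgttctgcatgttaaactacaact
Fancg: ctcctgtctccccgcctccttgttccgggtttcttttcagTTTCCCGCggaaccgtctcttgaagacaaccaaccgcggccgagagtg
Mdc1: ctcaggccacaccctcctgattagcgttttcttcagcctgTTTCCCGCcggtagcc
Xrcc6: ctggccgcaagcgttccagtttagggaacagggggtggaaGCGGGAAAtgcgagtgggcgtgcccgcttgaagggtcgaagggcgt

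These stretches lie at chr1:71103134-71103221 (minus strand), chr5:110839791-110839878 (plus), chr4:43010306-43010393 (minus), chr17:35841442-35841497 (plus) and chr15:82016283-82016368 (plus). Fancg and Bard1, which hold the word, were called in 0 and 1 of the comparisons they were tested in, and Xrcc6 in 6 of 10. Brca2 held the word upstream as well, and Msh6 and Rad51c held it after or across a start site. The window of Chek1, among the most lowered genes, had none of the 4 words. No window was found for Fancd2, Exo1, Xrcc2, Rad54b, Prkdc, Nbn and Rad50. Of these, Fancd2 and Exo1 had the lowest folds of all members in BL over NBM, at -4.06 and -3.62. Nbn, at -0.79, was not called there. Whether the word goes with the folds was not tested.

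Other genes of the same pathways were listed apart from the members. In AT over BM and BL over BM many of them were not called, and the calls made were lower, with 1 exception. In AT over BM the authors' deposited table called 11 of 29 other recombination genes lower, 1 of 9 Fanconi genes, 8 of 15 mismatch genes, 4 of 14 end joining genes and 8 of 20 signalling genes, with 0 higher in each list. In BL over BM it called 16 of 29, 4 of 9, 12 of 15, 6 of 14 and 11 of 20 lower, with 1 signalling gene higher. Parp1, the sensor of strand breaks, was at -1.82 in AT over BM and -2.05 in BL over BM there, and Ticrr, which starts replication origins, at -3.26 in BL over BM. The shares of all genes lower were 15.5% and 22.8%, so 1 of 9 Fanconi genes in AT over BM is near the background. After centring, the AT over BM counts became 0, 1, 2, 1 and 2 lower, beside 5.11% of all genes, so few calls remained in any list. Calls against the members' direction in other comparisons included Polm, higher in BL over NBM at 1.78, Aplf, higher in BM over NBM at 1.38, and Wee1, lower in AT over BL at -2.13, all in the authors' deposited table.

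Excision repair was covered by 2 further lists. Base excision repair gave 3 of 12 lower in AT over BM and 6 of 12 in BL over BM in the authors' deposited table, with Apex1, the main abasic site nuclease, at -1.71 and -2.32. Nucleotide excision repair gave 3 of 17 in each, with medians of -0.94 and -0.51, beside 15.5% and 22.8% of all genes lower.

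Cell cycle genes moved with the members, and their part in the result was not tested. Summed FPKM of 25 S phase genes was 511 in NBM, 376 in BM, 491 in SPL, 79.3 in BL and 184 in AT LSC, and that of 23 genes of G2 and mitosis was 361, 303, 411, 47.0 and 121. In BL over BM the authors' deposited table called 22 of 25 S phase genes and 21 of 23 mitotic genes lower, and in AT over BM 8 of 25 and 15 of 23, beside 22.8% and 15.5% of all genes. In AT over BL it called 7 of 25 and 12 of 23 higher, beside 4.01% of all genes. After centring, AT over BM gave 2 of 25 and 6 of 23 lower, beside 5.11% of all genes, which the S phase count is near. Mki67, the proliferation marker, stood at 16.2, 13.0, 17.1, 2.90 and 6.51 FPKM in NBM, BM, SPL, BL and AT LSC, and AT over BM was not called (q 0.121 in the authors' deposited table). Of regulators of this programme, 14 E2F and related genes summed to 33.1, 35.5, 44.1, 14.3 and 18.8 FPKM in the same order, with 6 lower and 1 higher in BL over BM and 2 lower and 1 higher in AT over BM by the authors' deposited table. E2f8 and Tfdp1 were lower in both, and E2f2, at 1.71, 1.06, 1.15, 3.81 and 2.90 FPKM, was higher in AT over BM at 1.45 (q 0.0106) in that source. The S phase list had a median fold of -1.09 in AT over BM and -2.32 in BL over BM, and the members -1.49 and -1.99.

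Targets of p53, the factor that breaks activate, were called in both directions. Their summed FPKM was 73.8 in NBM, 92.7 in BM, 98.3 in SPL, 138 in BL and 142 in AT LSC. Against NBM the authors' deposited table called 6 of 16 higher and 0 lower in AT LSC and 5 higher and 1 lower in BL LSC. All genes gave 7.94% higher and 15.5% lower in AT LSC and 11.5% and 22.9% in BL LSC. Cdkn1a, the CDK inhibitor of this pathway, stood at 10.9, 16.2, 13.3, 33.5 and 41.8 FPKM in the order NBM, BM, SPL, BL, AT, and was called in AT over NBM at 1.93 ± 0.46 (q 0.000368) and in BL over NBM at 1.61 ± 0.36 (q 0.000135) in the authors' deposited table. Against BM LSC the list gave 6 higher and 4 lower in AT and 4 higher and 3 lower in BL LSC, where all genes gave 7.24% and 15.5%, and 10.5% and 22.8%. Its median in AT over BM changed sign with the scaling, from -0.07 to 0.40 after centring.

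**Figure D4:**
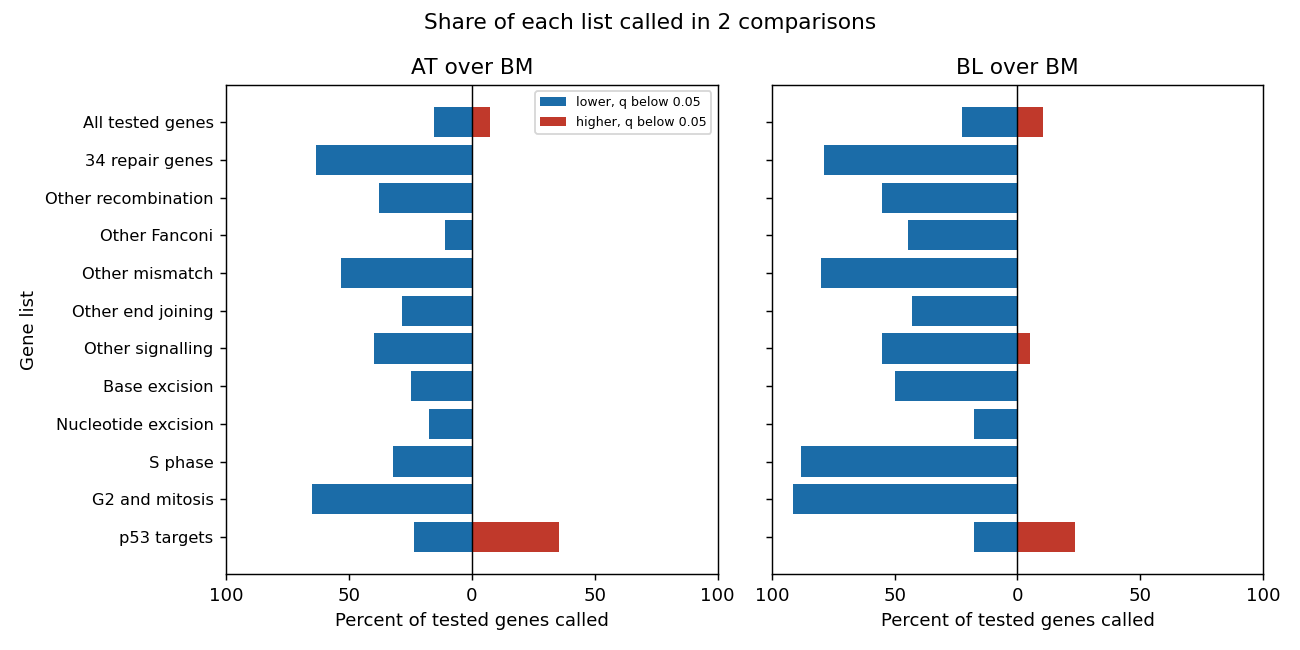
Percent of tested genes called lower (left of 0) and higher (right of 0) in AT over BM and BL over BM, for all tested genes, the 34 repair genes and 10 other lists. The repair genes, at 21 and 26 of 33 lower, stand beside the mitotic list at 15 and 21 of 23, whereas nucleotide excision repair, at 3 of 17, is near all genes.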

How the data were processed

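RNA was measured by RNA-seq (Qiagen RNeasy Plus, Clontech SMARTer low-input chemistry, Illumina Nextera XT, per the labels' protocols) in 15 libraries, 3 in each of 5 groups. Reads were trimmed with Trimmomatic 0.32 and run through Cufflinks 2.0.2 and Cuffdiff on mm10, per the submitters' processing notes. For the aligner, the annotation and the version of Cuffdiff nothing is stated in the labels. Per gene and group, the authors deposited an FPKM with bounds and an estimated count, each pooled over 3 libraries, and for each of 10 pairs a log2 fold with its test statistic, p-value and q-value. Deposited q-values equalled a Benjamini-Hochberg adjustment over all 10 comparisons to within 1.70e-06.

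Because the values are pooled, no test was computed on libraries, and the authors' calls were copied. Rescaled folds kept the authors' standard errors and were adjusted again over all 10 comparisons in Python 3.11.15 (scipy 1.17.1), a step tested on simulated data. The members, the 20 other lists (280 symbols, 275 found) and the alternatives were chosen with earlier results of these data known. All members are named, with full levels for those called at least once, and of each other list up to 3 called genes with the smallest q-value, besides Mki67 and Cdkn1a; some genes of these lists are not reported here. No strand setting is stated, and 10 members share 5% or more of their exon bases with another GENCODE M21 gene: Palb2, Rad54l, Rad54b, Fanca, Fancc, Fanci, Fancl, Fancm, Trp53bp1 and Xrcc6. Reads of overlapping genes cannot be told apart there.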

Additional observations from a re-analysis of the deposited data

Results flagged for a closer look

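For 5 members the distance from a shared reference group differed between adipose and circulating LSC, by the authors' test of AT against BL LSC. The log2 differences in the authors' deposited table were 1.77 for Brca1, 1.91 for Lig4, 1.60 for Xrcc2, 1.51 for Chek1 and 1.97 for Fancm, each higher in AT LSC. They were called after centring too, with q from 0.00371 for Brca1 to 0.0247 for Fancm. With the adjustment made within each comparison 2 of the 5 were called, at q below 0.01 only 1, and among genes at 1 FPKM or more in either group 0.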

How the results depend on the processing

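Of 151 member calls over the 10 comparisons, 0 changed direction under centring, total count or upper quartile scaling. Centring kept 104 calls, total count scaling 120 and upper quartile scaling 103. Members lower in AT than NBM fell from 19 to 11 after centring and 12 under upper quartile scaling. Those lower in AT than BM LSC fell from 21 to 8, 12 and 8 under centring, total count and upper quartile scaling, and to 12 at q below 0.01. Those lower in AT than SPL LSC fell from 21 to 9, 8 and 8, and to 12 at q below 0.01. Members higher in AT than BL LSC fell from 5 to 2 with the adjustment made within each comparison, to 1 at q below 0.01 and to 0 among genes at 1 FPKM or more in either group, a filter that removes all 5. In BM over NBM the 1 lower member became 0 at q below 0.01 and 0 with that filter, and 2 became higher at q below 0.10. All other counts, those of BL LSC against NBM, BM and SPL included, stayed within 1.5 times under the alternatives run. On a log2 scale of FPKM + 1, 135 of the 151 folds moved by more than a standard error, as the levels are near or below 1. No paired analysis was possible because each group has 1 pooled value, and for the same reason leaving out single libraries was not run. Low counts, 17 to 651 per member in BL LSC, limit the precision.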
